A study of Mus musculus with 30 samples.

Results

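MHC class I molecules and the proteins that load them with peptide were followed over 5 pathological stages of a mouse model of oral squamous cell carcinoma. The set held 10 genes, Nlrc5, H2-K1, H2-D1, B2m, Tap1, Tap2, Tapbp, Psmb8, Psmb9 and Psmb10, chosen by name for their role in class I presentation and found by Ensembl identifier among the 55487 rows of the read count table. All 10 passed the filter on low counts, which kept 17638 genes, and their counts ran from 79 (Psmb9) to 19168 (B2m) per library. RNA was sequenced from 30 bulk tissue samples of male C57BL/6J mice, the strain of the mouse reference genome, of which 3 were labelled normal, 8 hyperplasia and 7 dysplasia, and 6 each came from carcinoma in situ and from invasive carcinoma. The treatment given on every sample was 4NQO, a carcinogen that damages DNA, at 100 ug/mL in drinking water for 10 weeks from 6 weeks of age. Normal samples carry that treatment text too, and like the rest are labelled with carcinoma as their tissue, so whether the normal mice drank 4NQO is not given.

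Total counts ranged from 17725604 to 28023098 per library. Levels are in CPM, a gene's count scaled to the library's total count, with TMM factors of 0.892 to 1.06. The 10 keratinocyte markers summed to 40390 to 70860 CPM in every library and the 10 skeletal muscle markers to 13260 to 60000 CPM, so epithelium and muscle were both present. Codes of normal samples begin with the letter D, those of hyperplasia with A, those of dysplasia with B, while the carcinoma stages share C, and a batch following these letters cannot be told apart from stage except between the carcinoma stages. No label says that samples came from different animals, and every p-value therefore measures spread among these samples, which may be technical. In bulk tissue, fewer cells of a type and less RNA per cell cannot be told apart.

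MHC class I molecules display peptides from inside the cell to CD8 T cells. The immunoproteasome, a form of the proteasome with exchanged catalytic subunits that interferons induce, cuts proteins into peptides, the TAP transporter moves these into the endoplasmic reticulum, and tapasin brings empty class I molecules to TAP. Nlrc5 is recruited to class I promoters by a complex of RFX, CREB or ATF, and NF-Y proteins, which bind neighbouring promoter boxes, and loss of class I presentation is a known route of immune escape in squamous carcinoma.

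Of the 10 genes, 7 lie on chromosome 17 (GRCm38). H2-K1 (chr17:33996017-34000347, minus strand) and H2-D1 (chr17:35262730-35267499, plus strand) encode the classical class I heavy chains. Tap1 (chr17:34187553-34197225, plus) and Tap2 (chr17:34203527-34216321, plus) encode the transporter's subunits, and Tapbp (chr17:33915899-33929292, plus) encodes tapasin. Psmb8 (chr17:34197721-34201454, plus) and Psmb9 (chr17:34181987-34187764, minus) encode immunoproteasome subunits, and Psmb9, Tap1, Psmb8 and Tap2 lie side by side within 34.3 kb. The third immunoproteasome subunit gene, Psmb10 (chr8:105935735-105938444, minus), and Nlrc5 (chr8:94434356-94527272, plus) are on chromosome 8. B2m, the light chain of every class I molecule, is at chr2:122147686-122153083 (plus).

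Promoters were examined because Nlrc5 acts through promoter boxes that class I genes share. RefSeq's table for GRCm38.p6, which gives 250 bases before and 50 after each start site, held 8 of the 10 genes, all but Nlrc5 and Tap2. The 4 sequences below are those of the heavy chains, B2m and Tap1, written 5′ to 3′ on the gene's strand. Capitals mark the NF-Y box CCAAT and the CREB and ATF core TGACG on either strand, so that ATTGG and CGTCA are the same boxes read on the other strand. The windows are chr17:34000298-34000597 (minus strand) for H2-K1, chr17:35262844-35263143 (plus) for H2-D1, chr2:122147437-122147736 (plus) for B2m and chr17:34187306-34187605 (plus) for Tap1.
H2-K1 promoter: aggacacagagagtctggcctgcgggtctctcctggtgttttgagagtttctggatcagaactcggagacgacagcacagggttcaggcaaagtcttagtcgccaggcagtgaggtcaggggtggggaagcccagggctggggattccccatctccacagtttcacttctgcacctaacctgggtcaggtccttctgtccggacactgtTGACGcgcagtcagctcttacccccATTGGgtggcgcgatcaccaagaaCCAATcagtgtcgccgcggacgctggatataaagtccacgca
H2-D1 promoter: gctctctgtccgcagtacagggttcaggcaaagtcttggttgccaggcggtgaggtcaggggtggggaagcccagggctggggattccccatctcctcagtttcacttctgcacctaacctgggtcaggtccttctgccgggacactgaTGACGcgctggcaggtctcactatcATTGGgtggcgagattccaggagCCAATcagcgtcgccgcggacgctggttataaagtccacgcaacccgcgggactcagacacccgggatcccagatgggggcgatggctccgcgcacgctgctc
B2m promoter: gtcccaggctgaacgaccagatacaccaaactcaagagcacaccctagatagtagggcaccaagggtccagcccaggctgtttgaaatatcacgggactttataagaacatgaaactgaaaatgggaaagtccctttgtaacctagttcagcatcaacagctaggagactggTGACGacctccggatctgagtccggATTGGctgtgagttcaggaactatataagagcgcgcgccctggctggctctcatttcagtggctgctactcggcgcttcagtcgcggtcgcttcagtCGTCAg
Tap1 promoter: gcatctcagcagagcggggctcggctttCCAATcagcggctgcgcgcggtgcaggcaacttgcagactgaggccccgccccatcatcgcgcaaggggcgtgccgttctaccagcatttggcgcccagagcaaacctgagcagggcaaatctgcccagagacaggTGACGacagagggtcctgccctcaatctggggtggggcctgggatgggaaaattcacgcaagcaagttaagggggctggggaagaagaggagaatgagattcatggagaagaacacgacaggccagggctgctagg
In H2-K1, H2-D1 and B2m the core TGACG was followed after 20 bases by ATTGG, an arrangement searched for after it was seen in these sequences. It was present in 31 of 32851 promoters in the table (0.0944%), which belonged to 27 genes, and in 3 of the 8 member genes. In Tap1 the core began 86 bases before the start site, and its CCAAT box stood upstream of it at -222. TGACG by itself was present in 5 of the 8 genes (H2-K1, H2-D1, B2m, Tap1 and Psmb9) and in 20.8% of all promoters, and CCAAT in 6 of 8 (also Tapbp) and in 37.4%. The gamma-activated site TTCNNNGAA was in 1 of 8 (Psmb8) against 8.30% of promoters, the interferon regulatory factor core GAANNGAAA in 2 of 8 (H2-K1 and H2-D1) against 7.52%, and the kappaB motif in 3 of 8 (H2-K1, H2-D1 and B2m) against 8.46%. Both strands were searched, and none of these motifs is counted as a binding site. The Tap1 and Psmb9 start sites were 226 bases apart on opposite strands, so their windows shared 275 bases. The CCAAT box and the TGACG core of Tap1 are the same bases as those of Psmb9. Each of these sites is therefore counted for both genes.

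All 10 genes had their lowest mean level in normal tissue and their highest in hyperplasia, with dysplasia and both carcinoma stages between them. Tested over the 5 stages at once with edgeR's quasi-likelihood test, 9 of the 10 genes differed after Benjamini-Hochberg adjustment (adjusted p from 7.1e-07 for Nlrc5 to 0.0135 for Tapbp), and Psmb10 did not (0.0975). The same test called 53.2% of all tested genes.

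**Figure D1:**
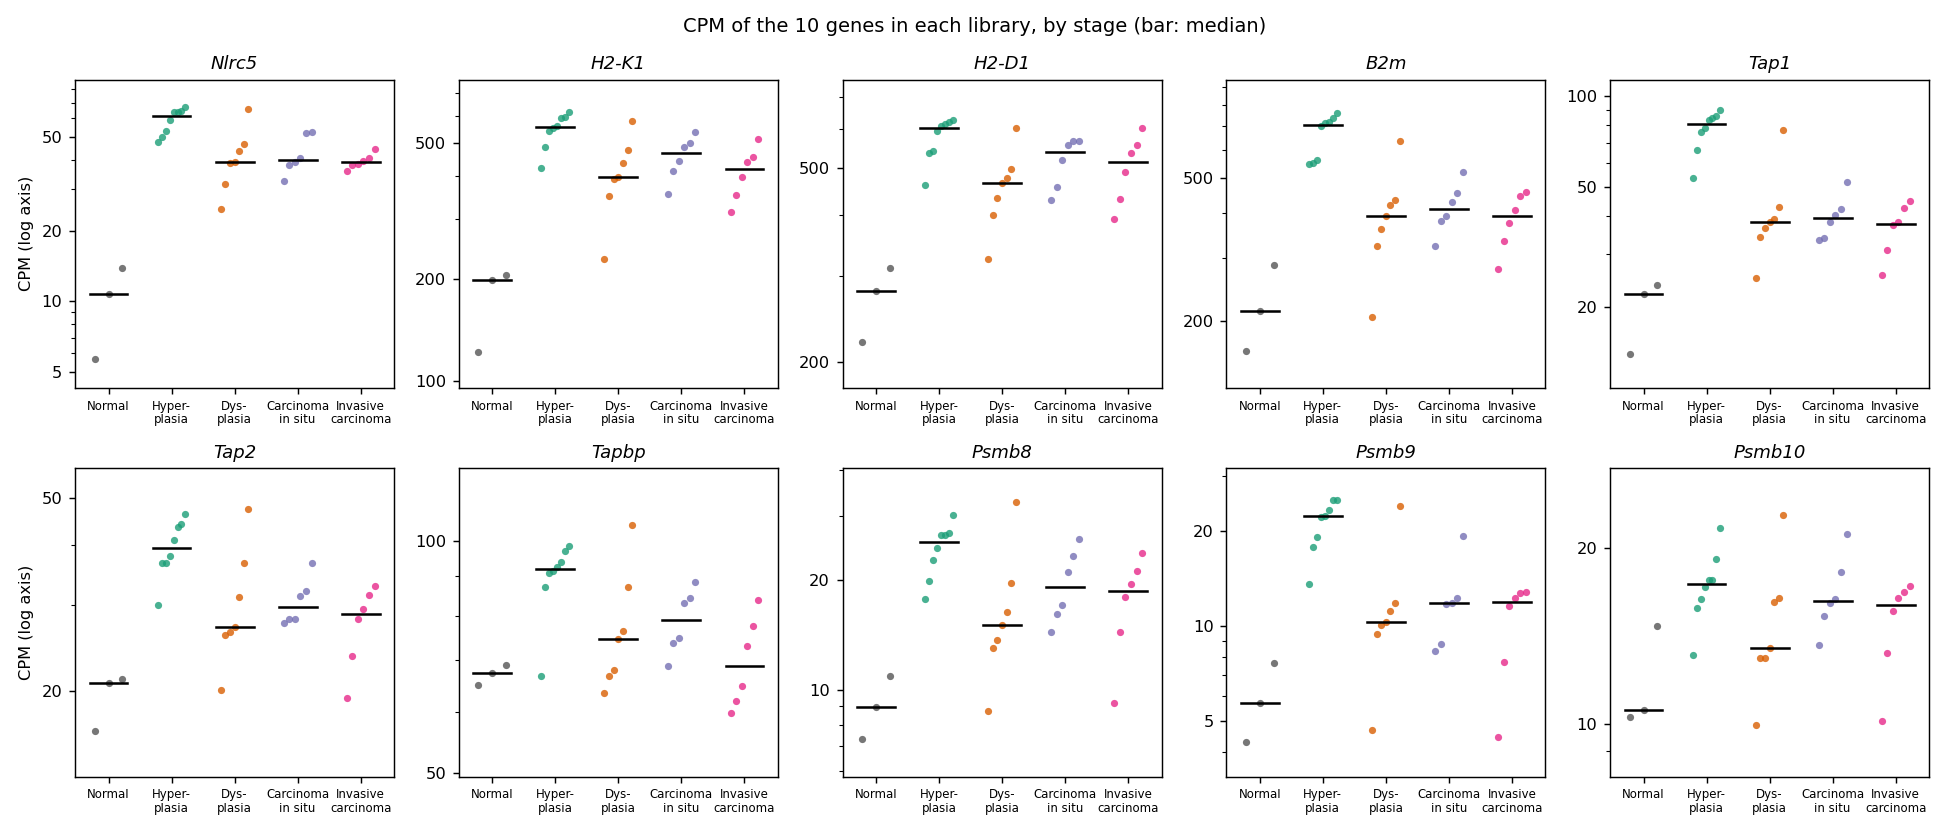
CPM of each of the 10 genes (vertical axis, log scale) in each of the 30 libraries, grouped by stage from normal to invasive carcinoma; points are libraries and bars are medians. Nlrc5 lay between 5.69 and 13.9 CPM in normal libraries and at 24.7 CPM or more in every other library, and the Tap1 and B2m medians were highest in hyperplasia.

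Nlrc5, the activator of class I transcription, was 5.78-fold higher in hyperplasia than in normal tissue and showed the largest fold change of the set in each comparison with normal tissue. Its CPM was 10.7, 5.69 and 13.9 in the normal libraries. Its lowest, median and highest CPM were 47.9, 61.5 and 67.4 in hyperplasia, 24.7, 39.0 and 66.1 in dysplasia, 32.4, 40.0 and 52.4 in carcinoma in situ, and 35.9, 39.0 and 44.7 in invasive carcinoma. No library of any later stage overlapped the normal range. From hyperplasia to invasive carcinoma the log2 fold change over normal was 2.53 ± 0.25, 2.03 ± 0.24, 2.07 ± 0.24 and 1.96 ± 0.24 (SE), with adjusted p at or below 7.9e-06. Invasive carcinoma was the most uniform stage for Nlrc5, with a coefficient of variation of 7.56%, against 31.6% in dysplasia and 41.0% in normal tissue.

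The heavy chains and their light chain rose together. H2-K1 had 205, 122 and 199 CPM in the normal libraries, and its lowest, median and highest were 422, 558 and 616 CPM in hyperplasia, 228, 397 and 582 in dysplasia, 355, 467 and 540 in carcinoma in situ, and 314, 420 and 514 in invasive carcinoma. Every later library exceeded every normal one. H2-D1 had 280.2, 220 and 313 CPM in the normal libraries, and 461, 603 and 626 in hyperplasia, 325, 465.7 and 605 in dysplasia, 431, 539 and 569 in carcinoma in situ, and 393, 514 and 605 in invasive carcinoma as lowest, median and highest. H2-D1 too was above the normal range in every later library. B2m had 214, 166 and 288 CPM in the normal libraries, and 548, 705 and 759 in hyperplasia, 206, 393 and 637 in dysplasia, 323, 411 and 522 in carcinoma in situ, and 279, 392 and 459.9 in invasive carcinoma. For B2m, 1 dysplasia library (B06) and 1 invasive library (C12) lay within the normal range.

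Of the 3 chains H2-K1 had the largest fitted change over normal in each later stage, and the order of H2-D1 and B2m varied. From hyperplasia to invasive carcinoma H2-K1 rose by log2 fold changes of 1.64 ± 0.21, 1.22 ± 0.21, 1.38 ± 0.21 and 1.23 ± 0.21. H2-D1 rose by 1.09 ± 0.15, 0.76 ± 0.15, 0.93 ± 0.16 and 0.89 ± 0.16 in the same stages. B2m rose by 1.57 ± 0.23, 0.84 ± 0.22, 0.91 ± 0.23 and 0.79 ± 0.23. All 12 of these changes had an adjusted p at or below 0.00801, and differences among the chains were not tested.

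Transporter and tapasin genes differed in size of change, Tap1 more than Tap2 and Tap2 more than Tapbp in every stage. Tap1, 1 subunit of the peptide transporter, had 22.1, 13.9 and 23.7 CPM in the normal libraries, and its lowest, median and highest were 53.6, 80.7 and 89.6 CPM in hyperplasia, 24.8, 38.1 and 77.4 in dysplasia, 33.3, 39.3 and 51.7 in carcinoma in situ, and 25.4, 37.7 and 44.99 in invasive carcinoma. Every later library again exceeded every normal one. Tap2, the other subunit, had 21.1, 16.5 and 20.7 CPM in normal libraries, with medians of 39.4, 27.1, 29.8 and 28.8 CPM from hyperplasia to invasive carcinoma. Tapbp had the smallest change over normal tissue of the 10 genes in each later stage, with 65.0, 67.4 and 69.0 CPM in normal libraries, with medians of 92.0, 74.6, 79.0 and 68.9 CPM in the later stages. Invasive carcinoma libraries lay on both sides of the normal range for Tapbp, 3 above it and 3 below.

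Of the immunoproteasome genes, Psmb9 had the largest change in hyperplasia and Psmb10 the smallest. Psmb8, which supplies a chymotrypsin-like activity, had 8.94, 7.32 and 10.9 CPM in normal libraries and medians of 25.5, 15.04, 19.1 and 18.7 CPM from hyperplasia to invasive carcinoma. Psmb9, whose subunit replaces the caspase-like one, had 4.28, 5.69 and 7.65 CPM in normal libraries, and its lowest, median and highest were 13.6, 22.3 and 25.2 in hyperplasia, 4.70, 10.3 and 24.1 in dysplasia, 8.33, 11.8 and 19.3 in carcinoma in situ, and 4.45, 11.9 and 12.8 in invasive carcinoma. Hyperplasia and carcinoma in situ were above every normal library for Psmb9, while 1 dysplasia and 1 invasive library fell inside the normal range. Psmb10, which replaces the trypsin-like subunit, had 10.3, 14.7 and 10.6 CPM in normal libraries and medians of 17.4, 13.5 and 16.3 CPM in hyperplasia, dysplasia and carcinoma in situ, and 10.1 to 17.3 CPM in invasive carcinoma.

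Levels between genes can be compared only per length. The length used joins the exons of every annotated transcript of a gene, for example 860 bases for B2m, 1705 for Psmb10 and 3660 for Psmb9. The order of genes therefore depends on which transcripts are annotated. Per kilobase of annotated exon, mean hyperplasia levels were 769 ± 105 CPM for B2m, 223 ± 22.6 for H2-D1, 186 ± 21.9 for H2-K1, 24.8 ± 2.75 for Tapbp and 14.1 ± 2.18 for Tap1 (SD, n = 8). Tap2 (10.5 ± 1.39), Psmb10 (10.2 ± 1.45), Psmb8 (7.20 ± 1.202), Nlrc5 (6.91 ± 0.868) and Psmb9 (5.77 ± 1.09) followed on the same scale. Within 1 SD, H2-D1 and H2-K1 overlapped, as did Tap2 and Psmb10, and Psmb8, Nlrc5 and Psmb9. In normal tissue Nlrc5 was the lowest of the 10 at 1.19 ± 0.487 CPM per kilobase, below Psmb9 at 1.61 ± 0.462 (SD, n = 3), whose spreads overlapped.

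Hyperplasia was compared with normal tissue to ask whether the class I pathway differs at the first abnormal stage. All 10 genes rose, against 8.22% of all tested genes called higher and 6.07% called lower. The median log2 fold change of the 10 genes was 1.497, against 0.01 over all tested genes. The smallest changes were those of Tapbp (0.42 ± 0.13, adjusted p = 0.0256) and Psmb10 (0.55 ± 0.19, 0.0488). Tap1 rose by 1.96 ± 0.25, Psmb9 by 1.84 ± 0.37, Psmb8 by 1.42 ± 0.30 and Tap2 by 1.02 ± 0.19, with adjusted p from 1.8e-05 to 0.00203. For 8 of the 10 genes every hyperplasia library was above every normal library, as it was for 9.13% of all tested genes, and for Tapbp and Psmb10 7 of 8 were. The Tapbp call was lost without any 1 of the 3 normal libraries (adjusted p up to 0.107), and the Psmb10 call without any 1 of D01, D03, A01, A02, A03, A06, A07 and A08 (up to 0.175).

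**Figure D2:**
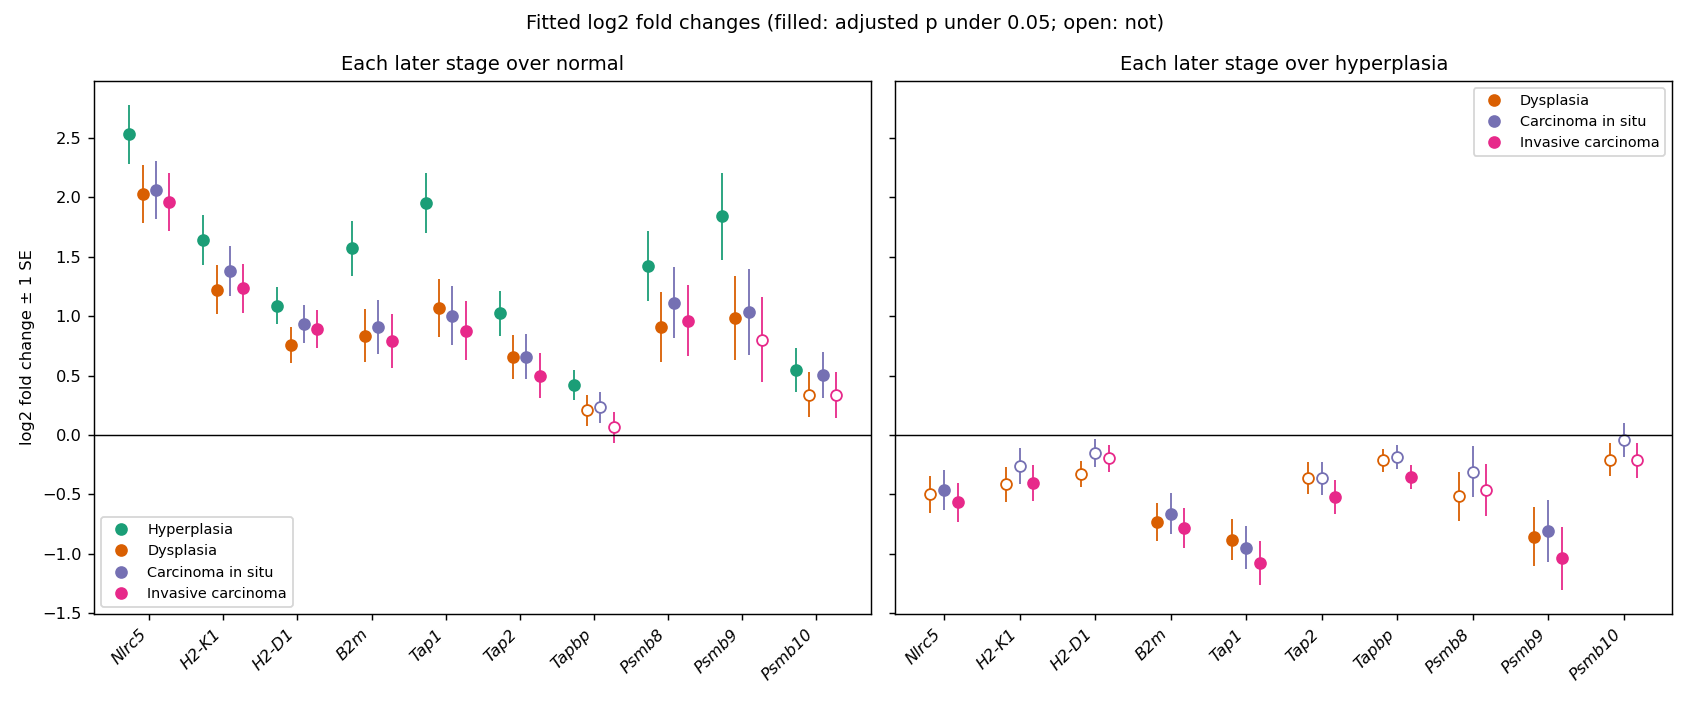
Fitted log2 fold changes ± 1 SE of the 10 genes, for each later stage over normal (left) and over hyperplasia (right); filled points have an adjusted p under 0.05 and open points do not. Every point on the left is above 0 and every point on the right below it, with Nlrc5 at 2.53 in hyperplasia over normal and Tap1 at -1.08 in invasive carcinoma over hyperplasia.

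In dysplasia 8 of the 10 genes rose over normal tissue, against 13.3% of all tested genes called higher and 12.4% lower. The median of the 10 was 0.87, against 0.01 over all tested genes. Tap1 rose by 1.07 ± 0.25, Psmb9 by 0.98 ± 0.36, Psmb8 by 0.91 ± 0.29 and Tap2 by 0.66 ± 0.19, with adjusted p from 0.00313 to 0.0421. Tapbp (0.21 ± 0.13, adjusted p = 0.243) and Psmb10 (0.34 ± 0.19, 0.193) were not called. Every dysplasia library exceeded every normal one for 4 genes, Nlrc5, H2-K1, H2-D1 and Tap1, as for 11.6% of all tested genes. Without normal library D02, which had the lowest level of 7 of the 10 genes in its stage, 4 genes were called, and Tap2, B2m, Psmb8 and Psmb9 were not. Psmb9 was also lost without D01, B02 or B05, and Psmb8 without D01.

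In carcinoma in situ 9 of the 10 genes rose over normal tissue, against 19.4% of all tested genes called higher and 18.2% lower. The median of the 10 was 0.97, against 0.02 over all tested genes. Psmb8 rose by 1.11 ± 0.30, Psmb9 by 1.03 ± 0.36, Tap1 by 1.01 ± 0.25, Tap2 by 0.66 ± 0.19 and Psmb10 by 0.50 ± 0.19, with adjusted p from 0.0029 to 0.042, and Tapbp was not called (0.23 ± 0.13, 0.162). For 8 genes, all but Tapbp and Psmb10, every carcinoma in situ library exceeded every normal one, as for 14.1% of all tested genes. The Tap2 call was lost without D02, the Psmb9 call without D01, D02 or C11, and the Psmb10 call without D01, D03, C07, C10 or C11.

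In invasive carcinoma 7 of the 10 genes were still higher than in normal tissue, against 23.4% of all tested genes called higher and 22.7% lower. The median of the 10 was 0.84, against 0.02 over all tested genes. Psmb8 rose by 0.96 ± 0.30, Tap1 by 0.88 ± 0.25 and Tap2 by 0.50 ± 0.19, with adjusted p from 0.00529 to 0.032. Psmb9 (0.80 ± 0.36, adjusted p = 0.0687), Psmb10 (0.33 ± 0.19, 0.162) and Tapbp (0.06 ± 0.13, 0.713) were not called, though Psmb9 was without C12. The genes with no overlap between invasive and normal libraries were 4, namely Nlrc5, H2-K1, H2-D1 and Tap1, as for 17.2% of all tested genes. Without D02 only 3 genes were called, the lost ones being Tap1, Tap2, B2m and Psmb8, and Tap2 was also lost without C03, C06 or C08. The 4 comparisons with normal tissue share their 3 normal samples.

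Later stages were compared with hyperplasia to ask whether the levels reached there were held. In dysplasia 3 genes fell, against 2.19% of all tested genes called lower and 2.99% higher: Tap1 by a log2 fold change of -0.88 ± 0.17 (adjusted p = 0.00283), B2m by -0.74 ± 0.16 (0.0069) and Psmb9 by -0.86 ± 0.25 (0.0425). The other 7 had log2 differences of -0.52 to -0.21 and were not called, and the median of the 10 was -0.46, against -0.01 over all tested genes. No gene had every dysplasia library below every hyperplasia library, which 0.862% of all tested genes had. Library B02 decided much of this: for Nlrc5, Tap1, B2m and Psmb9, 6 of the 7 dysplasia libraries lay below every hyperplasia library. Without B02, 9 of the 10 genes were called lower, all but Psmb10, and the Psmb9 call was lost without any 1 of A01, A02, A04, A06, A07, B03, B04, B05, B06 and B07. The share of all tested genes called lower without B02 is not given here, and the 2.19% above is from the fit with B02.

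Carcinoma in situ was lower than hyperplasia in 4 genes, against 8.39% of all tested genes called lower and 10.6% higher. Tap1 fell by -0.95 ± 0.18 (adjusted p = 9.3e-04), Psmb9 by -0.81 ± 0.26 (0.0316), B2m by -0.66 ± 0.17 (0.00829) and Nlrc5 by -0.47 ± 0.17 (0.048). The median of the 10 was -0.34, against 0.00 over all tested genes. For Tap1 and B2m every carcinoma in situ library lay below every hyperplasia library, as for 1.51% of all tested genes. H2-D1 (-0.15 ± 0.12, adjusted p = 0.366), H2-K1 (-0.26 ± 0.15, 0.231) and Psmb10 (-0.04 ± 0.14, 0.865) were among those not called. The calls of Psmb9 and Nlrc5 were both lost without A01, A04, C01, C07 or C10, which left 2 genes, and 1 of the pair was lost without A02, A03, A06, A07, C02 or C04.

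In invasive carcinoma 7 genes were lower than in hyperplasia, against 19.2% of all tested genes called lower and 19.1% higher. Tap1 fell by -1.08 ± 0.18 (adjusted p = 1.1e-04), Psmb9 by -1.04 ± 0.27 (0.0035), B2m by -0.78 ± 0.17 (9.1e-04) and Nlrc5 by -0.57 ± 0.17 (0.00895), and for these 4 every invasive library lay below every hyperplasia library, as for 3.96% of all tested genes. Tap2 fell by -0.52 ± 0.14 (adjusted p = 0.00513), H2-K1 by -0.41 ± 0.15 (0.0356) and Tapbp by -0.36 ± 0.10 (0.00638). H2-D1 (-0.20 ± 0.12), Psmb8 (-0.46 ± 0.22) and Psmb10 (-0.21 ± 0.15) were not called (adjusted p = 0.182, 0.0927 and 0.249). The median of the 10 was -0.49, against -0.01 over all tested genes. The H2-K1 call was lost without any 1 of A01, A04, A06, A07, C03, C05 and C12. The comparisons with hyperplasia share its 8 samples with one another and with the first comparison.

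Between dysplasia, carcinoma in situ and invasive carcinoma no member was called. With edgeR's quasi-likelihood test 0 of the 10 genes were called in carcinoma in situ against dysplasia, where 5.47% of all tested genes were, and the log2 differences ran from -0.07 to 0.21. In invasive carcinoma against carcinoma in situ 0 of the 10 were called, the percent of all tested genes called was 0, and the log2 differences were -0.23 to -0.04, below 0 for all 10. In invasive carcinoma against dysplasia 0 of the 10 were called, against 19.6% of all tested genes, with log2 differences of -0.19 to 0.13. At an unadjusted p under 0.05 the members called were also 0 in each of the 3 comparisons, against 4112, 1259 and 6114 of all tested genes, and DESeq2 and limma-voom called 0 as well. Standard errors of these differences reached 0.28 for Psmb9 and 0.11 for Tapbp, so changes of that order were not detectable here.

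Within a stage the 10 genes varied together from library to library. Among dysplasia libraries B02 had the highest level of all 10 genes and B06 the lowest of all 10. Their levels of Psmb9, for example, were 24.1 and 4.70 CPM. In hyperplasia A05 was lowest for 9 of the 10, in carcinoma in situ C11 was highest for 8 and C01 lowest for 7, and in invasive carcinoma C12 was lowest for 8. Over the 30 libraries, log2 CPM values of the 45 pairs of genes had a median Pearson r of 0.81 after stage means were subtracted, from 0.30 to 0.94. These values share library and depth and are given as a description.

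**Figure D3:**
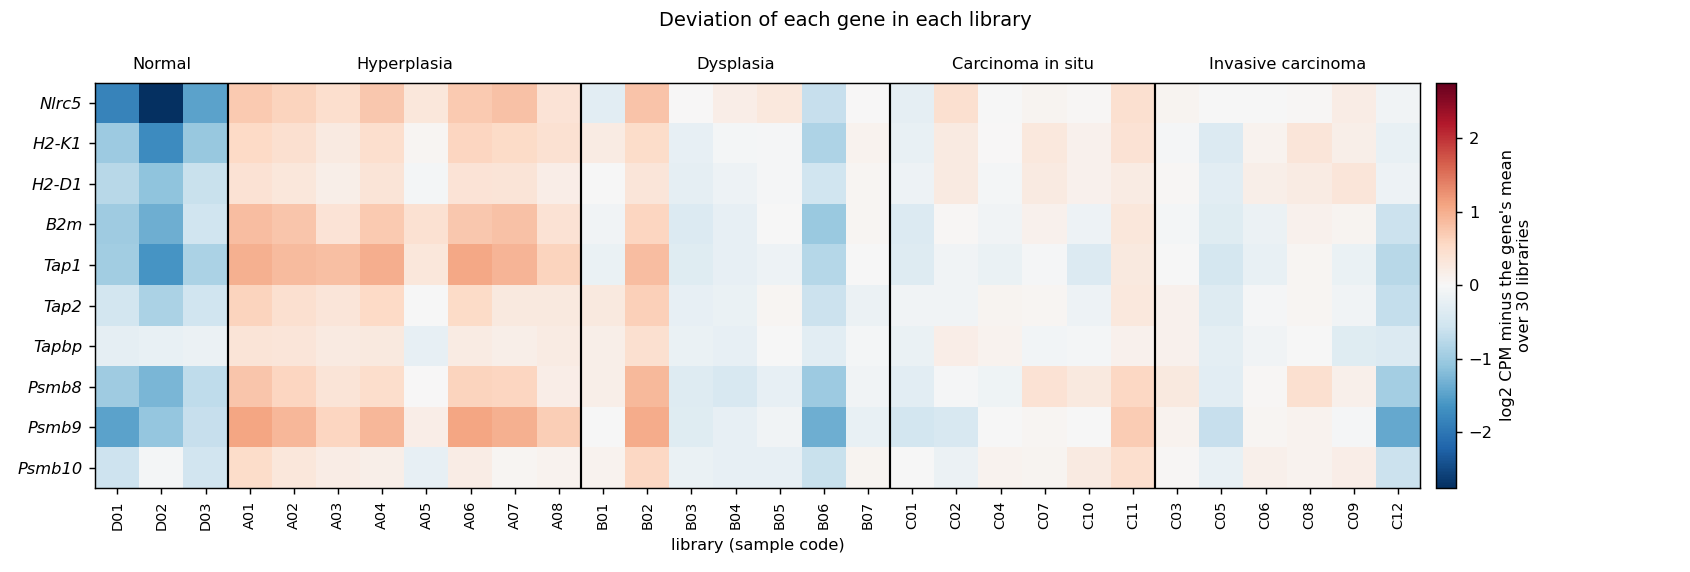
Log2 CPM of each of the 10 genes (down) in each of the 30 libraries (across, ordered by stage and sample code), as the difference from that gene's mean over all libraries; red is higher and blue lower. The 3 normal libraries are blue for Nlrc5, and in dysplasia B02 is red and B06 blue for all 10 genes.

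Because Nlrc5 activates class I genes, its level was set against each of the 9 others with stage means subtracted. No r over the pooled stages is given, since normal libraries lay apart from the rest for Nlrc5. Over the 30 libraries Pearson's r was highest for B2m (0.84, Spearman's rho 0.78), Tap1 (0.82, rho 0.76), H2-D1 (0.79, rho 0.70) and H2-K1 (0.78, rho 0.63). For Psmb8, Tap2 and Psmb9 it was 0.66 (rho 0.57), 0.62 (rho 0.50) and 0.62 (rho 0.54). In a permutation test within stages with 100000 resamples and adjustment over the 9 relations, these 7 had adjusted p at or below 0.0125 by both measures. Tapbp passed by Pearson (r = 0.48, permutation adjusted p = 0.00745) and not by Spearman (rho = 0.34, 0.0727), and Psmb10 passed by neither (r = 0.30, adjusted p = 0.193; rho = 0.11, 0.615). Without B02 and D02, the libraries farthest from the median Nlrc5 level, r was 0.80 for B2m, 0.74 for Tap1, 0.73 for H2-D1, 0.69 for H2-K1 and 0.39 for Tapbp.

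Genes outside the set were ranked by how like their log2 CPM was to the mean of the 10, over 30 libraries. The ranking held 14795 tested genes, with predicted genes, pseudogenes and antigen receptor segments left out. Its first 8 were H2-Q4 (r = 0.98), H2-Q7 (0.97), H2-Q6 (0.95), Cxcl10 (0.94), Foxp3 (0.88), Myo1g (0.86), Parp12 (0.86) and H2-Eb1 (0.85). With stage means subtracted they were H2-Q4 (0.93), H2-Q7 (0.93), H2-T22 (0.92), H2-Q6 (0.91), Cxcl10 (0.86), Cxcl9 (0.85), Slfn2 (0.82) and Gbp2 (0.82). Only H2-Q4, H2-Q7, H2-Q6 and Cxcl10 are in both lists. The H2-Q and H2-T genes are nonclassical class I genes near the classical ones in sequence, Cxcl10 and Cxcl9 are chemokines and Gbp2 a GTPase that interferon gamma induces, and Foxp3 marks regulatory T cells. Of the 75-base stretches in H2-K1 and H2-D1 transcripts, 3.10% and 5.56% also occur in transcripts of other genes, H2-Q7 among them. How such reads were counted is not given in the sources used here, so part of these likenesses may be shared reads. How large that part is was not measured.

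Shared sequence also touched other members. For Tapbp 18.6% of its 75-base stretches occur in transcripts of other genes, for Psmb8 9.97%, for Tap2 8.27%, for Psmb9 3.44% and for Tap1 2.399%, and for B2m and Psmb10 none do. Tap1 and Psmb9 overlap by 212 annotated bases on opposite strands, so reads from these bases can be told apart only where counting used the strand. The library kit keeps strand, but whether counting used it is not given in the sources used here.

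The immunoproteasome subunits replace standard ones, Psmb8 replacing Psmb5, Psmb9 replacing Psmb6 and Psmb10 replacing Psmb7, so each was also measured as a ratio within its library. The ratios are of CPM, not scaled by length, so they compare libraries and not the levels of the 2 genes. In hyperplasia Psmb8 was 34.4%, 44.1% and 56.8% of Psmb5 (lowest, median and highest), against 12.7%, 17.6% and 21.9% in normal tissue. Psmb9 was 10.5%, 16.1% and 20.03% of Psmb6 in hyperplasia, against 3.38%, 3.98% and 6.396% in normal tissue. Psmb10 ran from 8.74% to 15.3% of Psmb7 in hyperplasia, against 7.38% to 8.69% in normal tissue. All 8 hyperplasia libraries exceeded every normal library for each ratio. Exact permutation tests of the mean log2 ratio, two-sided and adjusted over the 12 tests, called all 3 in hyperplasia, by 1.37, 1.79 and 0.59 on the log2 scale (p = 0.0121, the smallest that 8 against 3 samples allow; adjusted p = 0.0485).

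**Figure D4:**
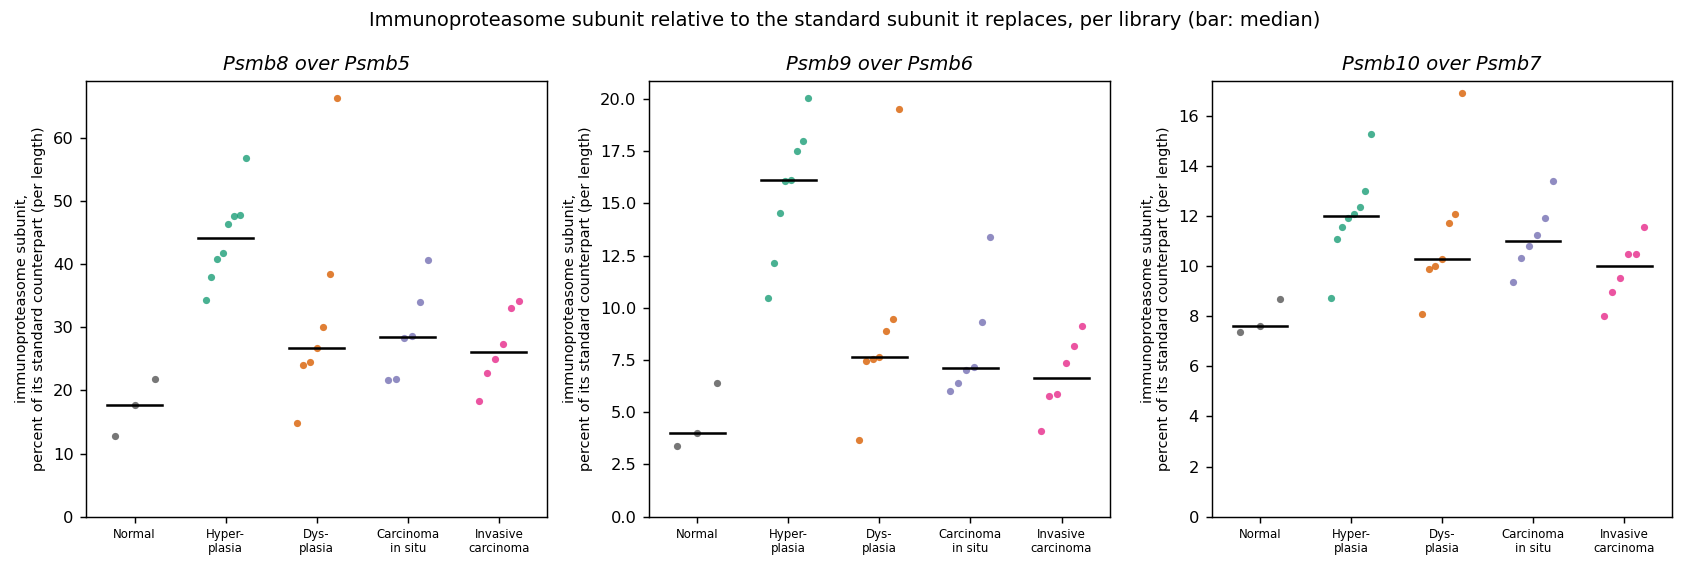
CPM of each immunoproteasome subunit gene as a percent of that of the standard subunit it replaces, in each of the 30 libraries by stage. Points are libraries and bars are medians. The values are not scaled by gene length, although the axis label says per length. Psmb8 over Psmb5 had medians of 17.6% in normal tissue and 44.1% in hyperplasia, and the later stages lay between them at 26.1% to 28.4%.

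In later stages the median ratios lay between those of hyperplasia and normal tissue. Median Psmb8 over Psmb5 was 26.8%, 28.4% and 26.1% from dysplasia to invasive carcinoma, and median Psmb9 over Psmb6 was 7.64%, 7.10% and 6.58% in the same stages. Median Psmb10 over Psmb7 was 10.3%, 11.02% and 9.99%, against 7.62% in normal tissue, and all 6 carcinoma in situ libraries exceeded every normal one. By the exact permutation tests 0 of the 3 ratios were called in dysplasia, carcinoma in situ or invasive carcinoma (adjusted p from 0.0667 to 0.143), with log2 differences from normal of 0.31 to 0.90, all above 0. The smallest p is 0.0167 for 7 dysplasia against 3 normal samples and 0.0238 for 6 against 3 in each carcinoma stage. These designs therefore had little room to pass the adjustment. Without dysplasia library B06, which leaves 6 against 3, all 3 ratios were called in dysplasia, so a design of that size could pass.

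Standard proteasome genes were called in the carcinoma stages. Of 14 standard subunits 0 were called in hyperplasia and 0 in dysplasia against normal tissue, while 6 rose in carcinoma in situ, and invasive carcinoma had 10 that rose, with medians of 0.05, 0.01, 0.20 and 0.32 on the log2 scale. Called higher in these 4 stages were 8.22%, 13.3%, 19.4% and 23.4% of all tested genes. In invasive carcinoma Psma5 rose by 0.45 ± 0.11 (adjusted p = 0.00171), Psmb3 by 0.44 ± 0.12 (0.00275), Psma3 by 0.35 ± 0.10 (0.00564) and Psmb2 by 0.33 ± 0.10 (0.00699). Against hyperplasia 11 of the 14 rose in invasive carcinoma and 0 fell, whereas Psmb9 was lower there. In that comparison 19.1% of all tested genes were called higher and 19.2% lower. Of 9 PA28 activator and assembly genes 0 were called in hyperplasia and 4 rose in invasive carcinoma against normal tissue: Psmg1 (0.49 ± 0.11, adjusted p = 7.9e-04), Psme3 (0.31 ± 0.08, 0.0018), Psme2 (0.39 ± 0.14, 0.0198) and Pomp (0.28 ± 0.11, 0.0387). Psme1, which with Psme2 forms the interferon-induced activator, was at 0.04 ± 0.12 (0.832).

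Chaperones and enzymes that work beside tapasin also rose. Of 11 other loading and trimming genes, 3 rose in hyperplasia against normal tissue, and 8, 7 and 6 rose in the 3 later stages in turn. Over the same 4 stages the share of all tested genes called higher was 8.22%, 13.3%, 19.4% and 23.4%. In hyperplasia these were Tapbpl, a tapasin-like editor (0.51 ± 0.14, adjusted p = 0.0122), Erap1, which trims peptides (0.34 ± 0.11, 0.0305), and Pdia3, a thiol oxidoreductase of the loading complex (0.43 ± 0.15, 0.0471). In invasive carcinoma Pdia3 rose by 0.88 ± 0.15 (adjusted p = 7.9e-05), Tapbpl by 0.68 ± 0.14 (3.8e-04), the chaperone Hspa5 by 0.85 ± 0.18 (4.3e-04) and calreticulin, Calr, by 0.72 ± 0.15 (4.5e-04), while the aminopeptidase Lnpep fell by -0.37 ± 0.10 (0.00341). Against hyperplasia 6 of the 11 rose in invasive carcinoma, led by Hspa5 (0.79 ± 0.13, adjusted p = 7.4e-05), Calr (0.55 ± 0.11, 5.8e-04), Canx (0.37 ± 0.09, 0.00223) and Pdia3 (0.46 ± 0.11, 0.00269), and Ide fell (-0.32 ± 0.12, 0.0295).

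Of 13 tested nonclassical class I genes out of 16 listed, 6 rose and 0 fell in hyperplasia against normal tissue. Of all tested genes 8.22% were called higher and 6.07% lower. H2-T10 rose by 2.31 ± 0.32 (adjusted p = 3.5e-05), H2-Q4 by 1.64 ± 0.25 (1.1e-04), H2-Q6 by 2.50 ± 0.40 (1.9e-04) and H2-Q7 by 2.62 ± 0.42 (1.9e-04). In invasive carcinoma against hyperplasia 8 fell and 2 rose, against 19.2% of all tested genes called lower and 19.1% higher. The lowest adjusted p among those that fell were those of H2-T10 (-1.43 ± 0.23, 5.1e-05), H2-T22 (-0.91 ± 0.16, 1.2e-04) and H2-Q6 (-1.43 ± 0.28, 4.7e-04), and the 2 that rose were H2-Q10 (3.34 ± 0.72, 9.3e-04) and H2-M2 (1.33 ± 0.36, 0.00526). These genes are near-identical in places and their counts are uncertain to that extent.

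The DNA-binding partners of Nlrc5 had median changes near 0. Of 10 listed, 2 rose in hyperplasia against normal tissue, Rfx5 (0.28 ± 0.08, adjusted p = 0.0254) and the NF-Y subunit Nfya (0.32 ± 0.10, 0.0331), and 0 fell, against 8.22% of all tested genes called higher. In invasive carcinoma against normal tissue Nfya (0.44 ± 0.11, 0.00151) and Creb1 (0.24 ± 0.09, 0.0231) rose, against 23.4% of all tested genes. The median log2 fold change of the 10 partners lay between -0.03 and 0.07 in the 4 comparisons with normal tissue.

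Interferon-induced genes outside the class I pathway also had their highest median sum in hyperplasia. Of 16 listed, 10 rose in hyperplasia against normal tissue, among them Mx1, an antiviral GTPase (2.90 ± 0.50, adjusted p = 3.4e-04), Cxcl10 (4.44 ± 0.82, 7.1e-04), Oas1a (1.84 ± 0.36, 0.0011) and Usp18 (1.72 ± 0.49, 0.0205). In invasive carcinoma 12 of the 16 were lower than in hyperplasia, with Oas1a at -2.004 ± 0.27 (adjusted p = 9.8e-06), Isg15 at -2.88 ± 0.38 (9.8e-06), Usp18 at -2.31 ± 0.39 (9.5e-05) and Rsad2 at -1.97 ± 0.34 (1.2e-04). Against normal tissue 2 rose in invasive carcinoma, Cxcl10 (3.26 ± 0.81, 0.00198) and Cxcl9 (2.13 ± 0.78, 0.0281), and 2 fell, Isg15 (-1.58 ± 0.44, 0.00524) and Rsad2 (-1.05 ± 0.41, 0.037). Of all tested genes 8.22% were called higher than normal in hyperplasia, and in invasive carcinoma 23.4% higher and 22.7% lower. Against hyperplasia 19.2% were called lower in invasive carcinoma. The median summed CPM of the 16 listed genes from normal tissue to invasive carcinoma was 134, 402, 194, 161 and 134. B02 had 685 summed CPM, the highest of all libraries, and B06 117, the lowest in dysplasia.

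Genes of interferon gamma signalling split. In hyperplasia against normal tissue 5 of 11 tested rose, among them Socs1, a feedback inhibitor (1.51 ± 0.25, adjusted p = 1.9e-04), Irf9 (1.09 ± 0.19, 2.9e-04), Irf1 (0.67 ± 0.19, 0.0163) and Irf8 (1.06 ± 0.35, 0.0378). Of all tested genes 8.22% were called higher there. In invasive carcinoma against hyperplasia the transcription factors Irf9 (-1.005 ± 0.14, adjusted p = 1.7e-05) and Irf1 (-0.38 ± 0.14, 0.0401) were among those that fell. Socs1 (0.64 ± 0.17, 0.00394), the phosphatase Ptpn2 (0.42 ± 0.09, 7.7e-04) and the kinase Jak2 (0.22 ± 0.06, 0.00595) rose in that comparison. Called lower in it were 19.2% of all tested genes, and higher 19.1%. Ifng itself had no count in any normal library and did not pass the filter.

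Class II genes, expressed mainly by antigen-presenting cells, rose over normal tissue and none fell against hyperplasia. Of 10 listed, 7 rose in hyperplasia against normal tissue, 8 in dysplasia and 9 in each carcinoma stage. H2-Ab1 rose by 1.35 ± 0.22 (adjusted p = 4.9e-05), H2-Eb1 by 1.30 ± 0.24 (1.4e-04), their activator Ciita by 1.30 ± 0.24 (1.4e-04) and H2-Aa by 1.198 ± 0.23 (2.3e-04) in invasive carcinoma. In invasive carcinoma against hyperplasia 1 of the 10 rose, H2-DMb2 (0.85 ± 0.28, adjusted p = 0.0181), against 19.1% of all tested genes. The median log2 difference was 0.00.

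Markers of all leukocytes rose over normal tissue, while those of single lineages differed. Of 10 myeloid and dendritic cell markers 2, 3, 6 and 6 were called higher from hyperplasia to invasive carcinoma. For 11 tested T and NK cell markers the counts were 5, 3, 7 and 6. The T and NK medians were 1.549, 1.325, 1.834 and 1.488 on the log2 scale. The shares of all tested genes called higher were 8.22%, 13.3%, 19.4% and 23.4%. Of 2 tested B cell markers 0 were called higher in any of these stages. The summed CPM of the 10 markers of all leukocytes was 73.9 to 101 in normal libraries, and from hyperplasia on 125 to 183, 91.6 to 175, 135 to 251 and 159 to 222, with medians of 92.1, 133, 121, 163 and 175. None of the 10 was at 0 in any group, and 7, 6, 9 and 9 of them rose against normal tissue in the 4 later stages. With the mean log2 level of these markers as a covariate, 6, 4, 2 and 1 of the 10 class I and loading genes were called higher than in normal tissue from hyperplasia to invasive carcinoma. Nlrc5 was called in all 4, at 2.23 ± 0.27 (adjusted p = 2.0e-05) in hyperplasia and 1.49 ± 0.32 (0.00444) in invasive carcinoma. In invasive carcinoma B2m was then at 0.05 ± 0.29 (0.925) and H2-K1 at 0.47 ± 0.24 (0.156). The share of all tested genes called with this covariate is not given here. Fewer calls than without the covariate therefore cannot be read as particular to the 10 genes. With the skeletal muscle level as covariate instead, every call against normal tissue was kept. Psmb10 was then also called in dysplasia (0.66 ± 0.18, adjusted p = 0.0286) and invasive carcinoma (0.74 ± 0.19, 0.00975). Tapbp was added in carcinoma in situ (0.36 ± 0.13, 0.04955) and Psmb9 in invasive carcinoma (1.285 ± 0.40, 0.0275). For that covariate too the share of all tested genes is not given here.

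Against hyperplasia none of the 10 markers of all leukocytes fell. In invasive carcinoma 2 of the 10 leukocyte markers rose, Cd53 (0.70 ± 0.21, adjusted p = 0.00964) and Lcp1 (0.57 ± 0.17, 0.0121), near the 19.1% of all tested genes called higher. In that comparison 7 of the 10 class I and loading genes fell, against 19.2% of all tested genes called lower. With the leukocyte level as a covariate 10 of the 10 were called lower in invasive carcinoma than in hyperplasia, 8 in carcinoma in situ and 2 in dysplasia, where the Psmb9 call was lost (-0.76 ± 0.23, adjusted p = 0.0558). Skeletal muscle markers were also lower in later stages, with a median sum of 25360 CPM in invasive carcinoma and 35050 in hyperplasia. With the muscle level as a covariate 2 genes, Tap1 and B2m, were called lower in invasive carcinoma than in hyperplasia and the same 2 in carcinoma in situ. Nlrc5 was then at -0.56 ± 0.20 (adjusted p = 0.0626) in invasive carcinoma and -0.46 ± 0.18 (0.097) in carcinoma in situ, and Psmb9 at -0.71 ± 0.28 (0.0912) and -0.62 ± 0.25 (0.117). Psmb10, not called, was then at 0.06 ± 0.14 and 0.11 ± 0.13 in these stages. The share of all tested genes called lower with either covariate is not given here. Counts of the 10 genes in these fits therefore cannot be set against it. In invasive carcinoma 5 of 5 endothelial markers (median log2 difference -0.77) and 4 of 5 fibroblast markers (-0.72) were also called lower than in hyperplasia, and 4 of 5 endothelial markers in carcinoma in situ. Of all tested genes 19.2% were called lower in invasive carcinoma and 8.39% in carcinoma in situ. The median summed CPM of the endothelial markers was 168 in invasive carcinoma and 292 in hyperplasia, and that of the fibroblast markers 714 and 1221, and none of these markers was at 0 in either stage. Keratinocyte markers went the other way against hyperplasia. In invasive carcinoma 7 of 10 were called higher and 0 lower (median 0.59), against 19.1% of all tested genes called higher. In carcinoma in situ 5 were higher and 0 lower (median 0.43), against 10.6%. Their median sum was 51740 CPM in invasive carcinoma and 51360 in hyperplasia. The part of these cell types in the fall of the class I genes was not tested. Of the T and NK cell markers 1 was lower in dysplasia than in hyperplasia, Gzmb (-1.85 ± 0.43, adjusted p = 0.00921), against 2.19% of all tested genes. In the later stages 0 were lower. Summed T and NK cell markers were low throughout, at 2.42 to 5.69 CPM in normal libraries and 4.15 to 17.2 CPM in later ones.

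**Figure D5:**
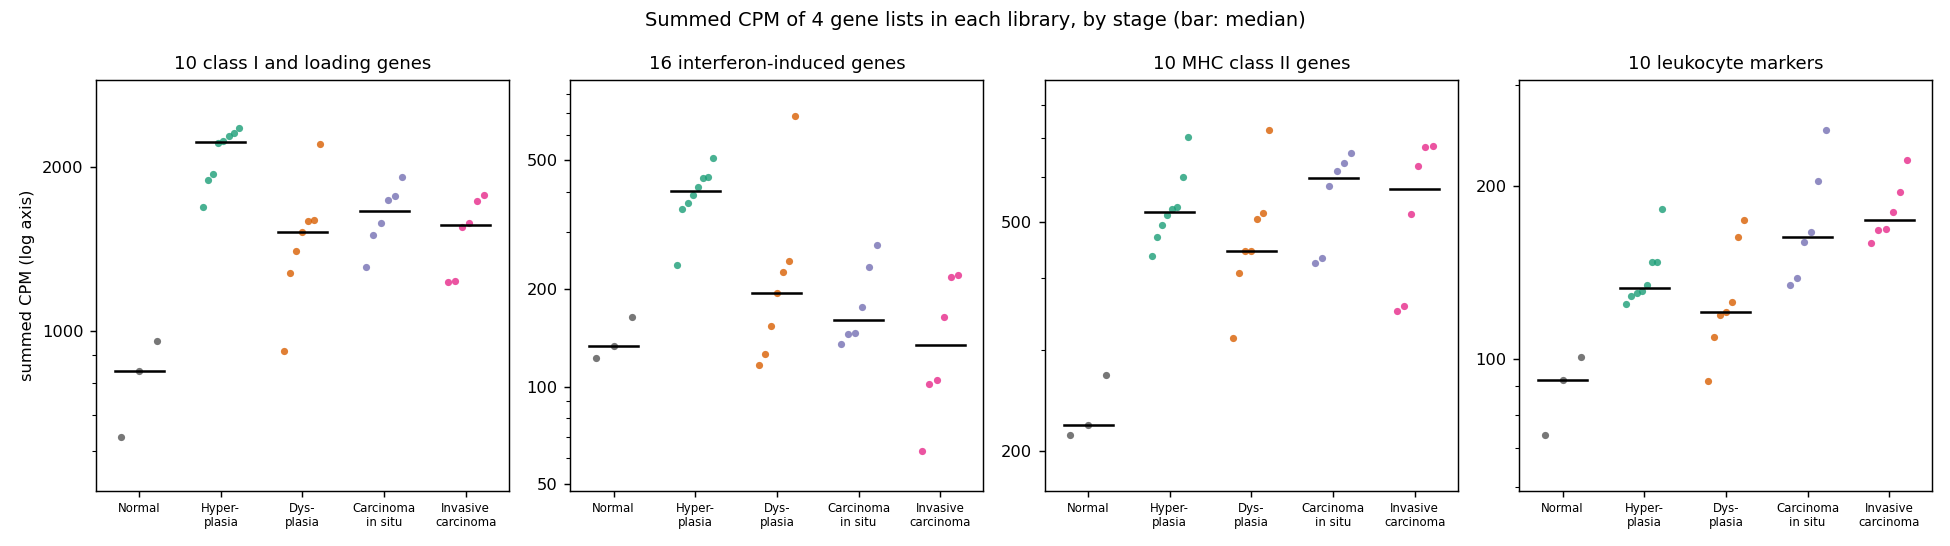
Summed CPM (vertical axes, log scale) of the 10 class I and loading genes, 16 interferon-induced genes, 10 class II genes and 10 leukocyte markers in each library, by stage; points are libraries and bars are medians. The interferon-induced genes had medians of 402 in hyperplasia and 134 in both normal tissue and invasive carcinoma, whereas the leukocyte markers had their highest median, 175, in invasive carcinoma.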

How the data were processed

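The authors deposited 1 table of raw read counts per Ensembl gene for 30 libraries; its values are whole numbers. The submitters' processing notes name cutadapt 2.4, STAR 2.7.2a and the GRCm38 build. The tool that counted reads, its strand setting and its annotation are not given in the sources used here, and how multiply mapped reads were treated could change the counts of near-identical class I genes. Of 55487 identifiers 99.53% matched GENCODE M21, which gave symbols, positions and exon lengths; total counts were 17725604 to 28023098 per library, no library was left out, and no 2 libraries were identical.

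edgeR 4.0.16 (R 4.3.3) was run on the whole table after TMM scaling; the filter on low expression left 17638 genes. A robust quasi-likelihood model with 1 mean per stage was fitted to all 30 libraries; the 10 pairs of stages and the 5 stages together were tested two-sided, with Benjamini-Hochberg adjustment over all tested genes and genes under 0.05 were called. Errors of fold changes are standard errors. Log2 CPM for ratios and correlations used a prior count of 2. Sequence stretches of 75 bases were compared between GENCODE M21 transcripts. The scripts were tested on simulated data.

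The 10 genes, the lists beside them and the tests were chosen with earlier results of these data known. Named genes are all 10 members and up to 4 genes per list with the smallest adjusted p in the comparison described, plus genes of opposite direction. The 8 ranked genes most like the members' mean are also named. Psme1, Psme2, Pomp, Irf1, Irf8, Jak2 and Gzmb were added after their values were seen. The values of 1 listed gene are not reported here.

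Other settings tried were DESeq2 1.42.0, voom from limma 3.58.1 with weights per sample, RLE or upper-quartile scaling, no filter on low expression, a fit of the 2 stages alone, an adjusted p under 0.01, the leukocyte, skeletal muscle or salivary gland level as a covariate, the sample number as a replicate block, a prior count of 0.5, and leaving out each library in turn. Leaving out B02 and B06 together was chosen after the data were seen. Python 3.11.15, pandas 2.3.3, numpy 2.4.6, scipy 1.17.1 and matplotlib 3.10.9 were used.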

Additional observations from a re-analysis of the deposited data

Results flagged for a closer look

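In 4 of 52 groups, each 1 gene or subunit ratio in 1 stage of 6 to 8 libraries, 1 library stood far from its nearest neighbour relative to the group's whole range; chance alone marks about 1 in 20 groups. Dysplasia library B02 had 77.4 CPM of Tap1, and the gap to the next library was 0.656 of the dysplasia range. The same library had 24.1 CPM of Psmb9, with a gap of 0.629 of the range. Hyperplasia library A05 had 66.8 CPM of Tapbp, the lowest of its stage, with a gap of 0.642 of the range. Carcinoma in situ library C11 had 19.3 CPM of Psmb9, with a gap of 0.64 of the range.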

How the results depend on the processing

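With the leukocyte level as a covariate, 6, 4, 2 and 1 of the 10 genes were called against normal tissue from hyperplasia to invasive carcinoma, and 8 in carcinoma in situ against hyperplasia; Psmb10 in carcinoma in situ (-0.0080) and Tap2 (-0.10) and Psmb8 (-0.15) in invasive carcinoma changed sign against normal tissue. So did values not called before or after: Tapbp in carcinoma in situ (-0.01), and Tapbp (-0.21), Psmb9 (-0.24) and Psmb10 (-0.23) in invasive carcinoma. In dysplasia against normal tissue 5 were called at an adjusted p under 0.01 and 4 in a fit of the 2 stages alone. In dysplasia against hyperplasia 5 were called by DESeq2 and 9 by limma-voom. In carcinoma in situ against hyperplasia 2 were called at an adjusted p under 0.01, 2 with no expression filter and 2 with the muscle covariate, which also left 2 in invasive carcinoma against hyperplasia. Against normal tissue the muscle covariate kept every call. It added Psmb10 in dysplasia, Tapbp in carcinoma in situ, and Psmb9 and Psmb10 in invasive carcinoma. The causes were not tested. With 1 library left out, the genes called were 8 to 10, 4 to 8, 7 to 9 and 3 to 8 against normal tissue from hyperplasia to invasive carcinoma, and 2 to 9, 2 to 5 and 6 to 7 against hyperplasia in dysplasia, carcinoma in situ and invasive carcinoma. The ratios called fell to 0 in hyperplasia without any 1 library, where the smallest p that 7 against 3 or 8 against 2 samples allow did not pass the adjustment over 12 tests, and were 0 to 3 in dysplasia. Whether equal sample numbers mark paired samples is not given by the labels. With stage means subtracted, 13 of 31 same-numbered pairs had r over 0.1 (median 0.03, against 0.01 for other numbers). Their r ran from -0.673 to 0.628, and 5 of 30 libraries were most like one of their own number. A low r does not exclude that same-numbered samples came from the same animal, so pairing was not settled. The replicate block called 10, 9 and 7 genes against normal tissue in hyperplasia, dysplasia and carcinoma in situ, 1 in invasive carcinoma against hyperplasia, and could not be fitted where stages share under 2 numbers. Without B02 and B06, chosen after the data were seen, 8 were called in dysplasia against normal tissue and 4 against hyperplasia. RLE and upper-quartile factors kept the count of these genes within 1.5 times in every comparison and turned no direction of a call, and the median of all genes moved by under 0.1 on the log2 scale. Of all genes called, 57.7% were higher in dysplasia against hyperplasia and 40.9% with upper-quartile factors, and 54.8% in carcinoma in situ against dysplasia and 67.8% with upper-quartile factors. Of 2320 refitted fold changes of the 10 genes, 2146 kept their side of the threshold, some of them values not called, which changed sign. The share of all tested genes called is not given here for any of these settings, those with libraries left out included. Higher or lower counts of the 10 genes in a setting therefore cannot be read as particular to them. The 3 normal libraries limit every comparison with normal tissue.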
